A study of Homo sapiens with 12 samples.

Results

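The 49 genes described here encode the proteins that license replication origins, unwind and copy DNA, and supply deoxynucleotides. They were chosen by gene symbol from a written list of replication genes, by a rule that reads no measured value, although earlier results of these data were known when the list was drawn up. They make up 49 of the 19775 genes that had at least 1 probe set naming them alone on the array. Each gene was represented by the brightest of its own probe sets over all arrays. The list holds 11 genes of origin recognition and licensing, 12 of the replicative helicase, 10 of the polymerases and primase, 6 of the sliding clamp and its loader, 5 of flap cutting, ligation and single-strand DNA binding, and 5 of nucleotide supply.

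The study asked which genes change when the microRNA miR-16, whose gene lies in a chromosome 13 region often lost in multiple myeloma, is held down by a sponge, a transcript with many binding sites for it. RNA was measured on Affymetrix arrays in 12 samples, 3 in each of 4 groups. The deposited values are log2 signals, so a difference of 1 is a doubling, and array medians lay between 5.80 and 5.90. A difference was called when its adjusted p was below 0.05 in limma, a linear model over all 54613 probe sets with Benjamini-Hochberg adjustment.

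The first group was the MMS1 line carrying a lentiviral miR-16 sponge, and was compared with MMS1 carrying a control (mock) sponge. The same pair was made in the RPMI8226 line, with a miR-16 sponge and with a control sponge. Every group had thus been transduced with a GFP lentivirus, sorted by flow cytometry and expanded as a stable population, and each condition rests on 1 such population as far as the labels tell. Sample titles name the miR-16 sponge groups miR16 KO and the treatment labels call them a knock down. One descriptive field of the RPMI8226 arrays speaks of an siRNA, whereas the treatment protocol describes the sponge. Whether each array had its own flask is not stated, so p-values measure only the spread between these arrays, which may be technical. The number of arrays, 3 per group, limits the precision. In bulk RNA, fewer cells in S phase and less of these transcripts per cell cannot be told apart. The mature miR-16 itself is not measured by these arrays.

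A single array stood apart on quality. On MMS1 miR-16 sponge replicate 1 the 18S ribosomal RNA control read 7.84, against 9.56 to 11.14 on the other 11 arrays, and its beta-actin 3′ minus 5′ difference was 0.49, against 0.08 to 0.34. Counts are therefore given with and without it. Correlations between arrays ran from 0.974 to 0.986 within groups and from 0.951 to 0.984 between groups, and no arrays were identical. These lines are labelled as multiple myeloma, a cancer of plasma cells. By group, 6 or 7 of 12 plasma cell markers lay above the median probe set of 5.83. By their mean over the 12 arrays, 13063 of all 19775 genes did so. SDC1 and XBP1 were among these markers, whereas CD38, MZB1 and POU2AF1 averaged below 5.83 in every group. JCHAIN averaged below 4.5 in every group and TNFRSF17 in the MMS1 miR-16 sponge and RPMI8226 control sponge groups. Of 11 erythroid markers 9 or 10 lay above the median probe set, by group. The embryonic globin HBE1 averaged 14.18 ± 0.05 in MMS1 with the miR-16 sponge, 14.39 ± 0.01 in MMS1 with the control sponge, 13.80 ± 0.00 in RPMI8226 with the miR-16 sponge and 14.28 ± 0.02 in RPMI8226 with the control sponge (SD, n = 3 each). The labelled line names are kept below.

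Before S phase, the origin recognition complex with CDC6 and CDT1 loads rings of MCM2 to MCM7 onto DNA. Each ring becomes an active helicase when CDC45 and the GINS complex join it, after which primase, the polymerases and the PCNA clamp copy both strands. Many of these genes are transcribed late in G1 under E2F factors, and others through CCAAT boxes and the cell cycle homology region (CHR) bound by the DREAM complex. miR-16 is known to lower several G1 cyclins and cyclin-dependent kinases.

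Shown first is the microRNA that the sponge binds, with its seed, bases 2 to 8, in capitals. It is the mature sequence from RefSeq, GRCh38.p14.
hsa-miR-16-5p (chr13:50049027-50049048, minus strand): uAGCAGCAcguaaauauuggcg

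Promoter windows, the 250 bases before the start of transcription, were read from RefSeq (GRCh38.p14) and searched on both strands for E2F words (TTTGGCGC, TTTCCCGC, TTTGCCGC or TTTCGCGC), the CCAAT box (CCAAT) and the CHR (TTTGAA). Shown are the 4 genes with a window and the smallest p in MMS1 and, for contrast, RRM1, whose p there was among the largest. Capitals mark the matches.
TK1 (chr17:78187205-78187454, minus strand): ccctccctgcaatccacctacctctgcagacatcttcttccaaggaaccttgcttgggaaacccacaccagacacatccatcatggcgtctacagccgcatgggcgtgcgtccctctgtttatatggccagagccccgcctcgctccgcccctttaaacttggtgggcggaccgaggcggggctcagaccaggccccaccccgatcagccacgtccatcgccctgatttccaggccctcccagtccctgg
MCM6 (chr2:135876444-135876693, minus strand): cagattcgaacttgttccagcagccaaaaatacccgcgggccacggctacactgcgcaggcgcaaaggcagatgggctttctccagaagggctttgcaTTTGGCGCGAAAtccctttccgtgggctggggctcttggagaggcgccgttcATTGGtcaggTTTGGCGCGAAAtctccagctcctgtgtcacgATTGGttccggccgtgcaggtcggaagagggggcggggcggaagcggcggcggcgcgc
CDC45 (chr22:19479670-19479919, plus strand): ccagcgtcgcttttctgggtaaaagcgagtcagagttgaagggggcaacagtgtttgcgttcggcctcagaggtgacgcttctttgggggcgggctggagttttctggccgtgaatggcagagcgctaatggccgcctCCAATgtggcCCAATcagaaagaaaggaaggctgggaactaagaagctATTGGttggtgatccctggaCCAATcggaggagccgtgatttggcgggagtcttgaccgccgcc
MCM10 (chr10:13161308-13161557, plus strand): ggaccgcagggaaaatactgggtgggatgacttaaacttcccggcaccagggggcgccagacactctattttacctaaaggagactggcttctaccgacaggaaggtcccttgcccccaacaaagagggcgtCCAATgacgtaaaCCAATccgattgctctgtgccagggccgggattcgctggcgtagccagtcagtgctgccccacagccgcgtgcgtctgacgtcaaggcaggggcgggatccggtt
RRM1 (chr11:4094435-4094684, plus strand): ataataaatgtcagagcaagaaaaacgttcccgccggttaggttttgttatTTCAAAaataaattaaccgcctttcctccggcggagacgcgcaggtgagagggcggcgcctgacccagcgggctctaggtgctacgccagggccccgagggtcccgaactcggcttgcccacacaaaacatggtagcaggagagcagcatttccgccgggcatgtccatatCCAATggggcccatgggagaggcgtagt
The TK1 window shown held none of the words, and another of its windows held a CCAAT match. The MCM6 window held 4 E2F matches, in pairs where TTTGGCGC overlaps the reverse complement of TTTCGCGC, and 2 CCAAT matches. CDC45 had 4 CCAAT matches, MCM10 had 2, and neither held an E2F word. RRM1 held 1 CCAAT and 1 CHR match. The window of ORC6, whose p in MMS1 was larger still, is not shown. It held 2 CCAAT matches and neither an E2F word nor a CHR. Windows were found for 43 of the 49 genes. An E2F word lay in a window of 16 of these 43 (37.2%), against 928 of all 27305 genes with a window (3.4%). A CCAAT box lay in 24 of 43 (55.8%), against 37.0% of all genes, and the CHR in 3 of 43 (6.98%), against 16.1%. Among the genes described here, E2F words lay in 5 of the 15 that fell in MMS1 and had a window (33.3%) and in 11 of the 28 that did not pass (39.3%), and CCAAT boxes in 9 of 15 (60.0%) and 15 of 28 (53.6%). These shares were not tested. The 27305 genes outnumber the 19775 measured on the arrays, and the sets were not matched for gene type or base composition. A match is a description of letters, not a site or a cause.

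In MMS1, the miR-16 sponge went with lower signals of replication genes, 8 of the 12 helicase genes among them. Of the 49 genes 16 fell, 1 rose (RPA3) and 32 did not pass. Over all genes, 8.08% were called lower and 4.34% higher in this comparison, or 11.1% lower among genes brighter than the median probe set, as all 49 were. The median log2 difference of the 49 was -0.30, with 43 of them below 0, against -0.04 over all genes. The differences ran from -0.97 for TK1 to 0.64 for RPA3, with a median standard error of 0.11. For all 16 genes that fell, each of the 3 miR-16 sponge arrays lay below each of the 3 control arrays. The same held for 26 of the 49 genes and for 3717 of all 19775 genes. The calls came from these same arrays, so this separation is no further evidence. The plot of sponge effects by role shows the log2 differences beside those of RPMI8226.

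**Figure D1:**
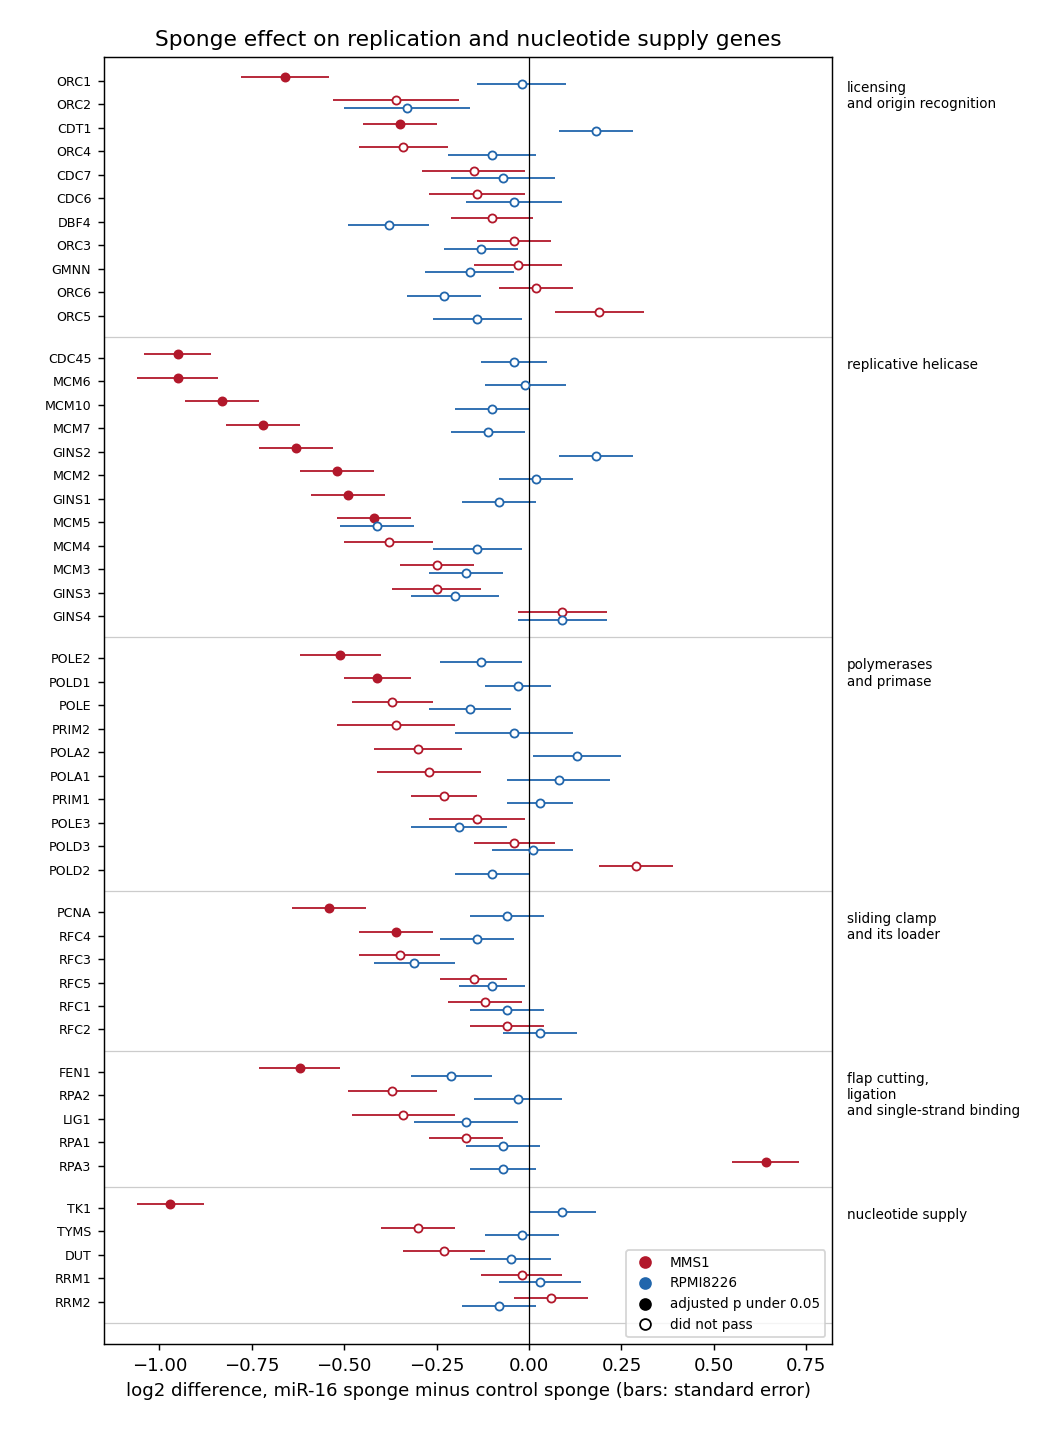
Sponge effect of each of the 49 genes (log2 difference, miR-16 sponge minus control sponge, with its standard error) in MMS1 and RPMI8226, grouped by role, with filled points for adjusted p below 0.05. In MMS1 16 genes lie to the left of 0 and 1, RPA3, to the right among the filled points, and in RPMI8226 no point is filled.

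The helicase held 8 of the 16 genes that fell, with 8 of 12 called lower, none higher and a median of -0.50. CDC45, which joins the MCM ring to the GINS complex in the active helicase (chromosome 22), read 8.59, 8.51 and 8.41 on the MMS1 miR-16 sponge arrays, against 9.44, 9.45 and 9.48 on the control arrays. The groups were far apart relative to their spread, and the sponge level was 51.7% of the control level (log2 difference -0.95, SE 0.09, limma adjusted p = 2.73e-05).

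MCM6, a subunit of the ring (chromosome 2), gave 9.25, 8.96 and 8.90 with the miR-16 sponge, against 9.99, 9.97 and 9.99 with the control sponge. Its log2 difference was -0.95 (SE 0.11, limma adjusted p = 0.000108). Replicate 1 of the miR-16 sponge was the closest to the controls. MCM10, which activates the assembled helicase (chromosome 10), gave 6.88, 6.59 and 6.71, against 7.63, 7.5 and 7.55, a log2 difference of -0.83 (SE 0.10, limma adjusted p = 0.000179).

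The other ring subunits had smaller differences. Of MCM2 to MCM7, 4 of 6 passed, with a median of -0.47. MCM7 averaged 9.64 ± 0.16 with the miR-16 sponge and 10.36 ± 0.09 with the control sponge (SD, n = 3 each; log2 difference -0.72). MCM2 differed by -0.52 and MCM5 by -0.42. MCM4 (-0.38, limma adjusted p = 0.0688) and MCM3 (-0.25, limma adjusted p = 0.17) did not pass, though their groups did not overlap either. Of the GINS complex, GINS2 (-0.63) and GINS1 (-0.49) fell, whereas GINS3 (-0.25) and GINS4 (0.09) did not pass. GINS2 read 8.28, 8.33 and 8.38 with the miR-16 sponge, against 9.0, 8.87 and 9.02 with the control sponge. Its call rests on the brightest of its 3 probe sets. The others differed by -0.15 and 0.32 and did not pass, and over the mean of all 3 the adjusted p was 0.241.

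Of the licensing genes 2 of 11 were called lower and none higher, with a median of -0.14. Over all genes 8.08% were called lower, or 11.1% of brighter genes, so this count is not far from that share. ORC1, the subunit of the origin recognition complex whose level is regulated over the cell cycle, read 6.52, 6.41 and 6.20 with the miR-16 sponge, against 7.17, 6.94 and 6.99 with the control sponge. Its groups were clearly apart (log2 difference -0.66, SE 0.12, limma adjusted p = 0.0026). The other 5 ORC genes did not pass, from -0.36 for ORC2 to 0.19 for ORC5. ORC4 read 8.55, 8.06 and 8.21, against 8.53, 8.60 and 8.71, and replicate 1 of the miR-16 sponge lay within the control range. CDT1, the MCM loading factor, read 10.42, 10.33 and 10.43, against 10.82, 10.58 and 10.82 (log2 difference -0.35, limma adjusted p = 0.0451). This call was close to the threshold and was lost on leaving out any array but MMS1 control replicate 2. CDC6, which loads MCM rings with CDT1, differed by -0.14. GMNN, the inhibitor of CDT1, differed by -0.03. CDC7 and DBF4, the kinase that fires licensed origins and its activator, differed by -0.15 and -0.10, and none of these 4 genes passed.

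Among polymerase and primase genes 2 of 10 fell, none rose and the median was -0.29. This count too is not far from the share of all genes called lower (8.08%, or 11.1% of brighter genes). POLE2, a subunit of the leading strand polymerase epsilon, read 7.75, 7.51 and 7.43 with the miR-16 sponge, against 8.02, 8.10 and 8.10 with the control sponge (log2 difference -0.51, SE 0.11, limma adjusted p = 0.0119). POLD1, the catalytic subunit of the lagging strand polymerase delta, gave 8.05, 8.03 and 8.14, against 8.5, 8.44 and 8.53 (-0.41, SE 0.09, limma adjusted p = 0.0129). Neither gene's groups overlapped. POLE, the catalytic subunit of polymerase epsilon, lay just outside the threshold. Its arrays read 6.97, 6.70 and 6.95, against 7.32, 7.21 and 7.20 (-0.37, limma adjusted p = 0.0506). The accessory subunit POLD2 leaned the other way, with 9.15, 9.28 and 9.28 against 9.06, 8.86 and 8.91 (0.29, limma adjusted p = 0.0778). The 4 subunits of the primase and polymerase alpha complex, which starts each new strand, ranged from -0.36 (PRIM2) to -0.23 (PRIM1) and did not pass.

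For the clamp, 2 of 6 genes fell, none rose and the median was -0.25, where 8.08% of all genes were called lower. PCNA, the ring that holds polymerases on DNA, read 9.32, 9.14 and 9.12 with the miR-16 sponge, against 9.82, 9.65 and 9.73 with the control sponge. The log2 difference was -0.54 (SE 0.10, limma adjusted p = 0.00393). Of the loader subunits, RFC4 gave 8.62, 8.37 and 8.36, against 8.86, 8.75 and 8.81 (-0.36, limma adjusted p = 0.0334). RFC3 gave 9.02, 8.77 and 8.72, against 9.10, 9.16 and 9.29 (-0.35, limma adjusted p = 0.0547), just short of the threshold. RFC1, RFC2 and RFC5 lay between -0.15 and -0.06 and did not pass.

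The single-strand binding protein RPA showed the only rise. RPA3, its smallest subunit (chromosome 7), read 10.13, 10.03 and 10.01 with the miR-16 sponge, against 9.34, 9.44 and 9.47 with the control sponge. It was 1.56-fold higher with no overlap (log2 difference 0.64, SE 0.09, limma adjusted p = 0.000698). Neither partner subunit passed. RPA2 read 8.46, 8.35 and 8.13, against 8.76, 8.70 and 8.61 (-0.37, limma adjusted p = 0.0691), and RPA1 differed by -0.17. FEN1, the nuclease that trims the flaps of Okazaki fragments, read 8.65, 8.41 and 8.34, against 9.21, 9.05 and 9.01 (-0.62, SE 0.11, limma adjusted p = 0.00236). LIG1, which seals those fragments, differed by -0.34 with overlapping groups and did not pass.

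For nucleotide supply 1 of 5 genes fell, none rose, 4 did not pass and the median was -0.23. With so few genes, this count is not far from the share of all genes called lower (8.08%, or 11.1% of brighter genes). TK1, the S-phase thymidine kinase of the salvage route (chromosome 17), read 9.12, 9.24 and 9.29 with the miR-16 sponge, against 10.25, 10.13 and 10.18 with the control sponge. At 51.2% of the control level it had the largest fall of the 49 (log2 difference -0.97, SE 0.09, limma adjusted p = 1.59e-05). The subunits of ribonucleotide reductase, which makes deoxynucleotides from ribonucleotides, had log2 differences of -0.02 (RRM1, SE 0.11) and 0.06 (RRM2, SE 0.10). RRM1 averaged 9.73 ± 0.17 with the miR-16 sponge and 9.75 ± 0.06 with the control sponge, and RRM2 averaged 9.75 ± 0.11 and 9.69 ± 0.02 (SD, n = 3 each). Thymidylate synthase, TYMS, gave 10.62, 10.42 and 10.40, against 10.84, 10.68 and 10.84 (-0.30, limma adjusted p = 0.0744). DUT, which keeps uracil out of DNA, gave 10.38, 10.18 and 10.24, against 10.56, 10.39 and 10.55 (-0.23, limma adjusted p = 0.238). Both were lower on every sponge array without passing. TYMS was called lower after quantile normalization, with brighter probe sets only, under an intensity trend and without MMS1 miR-16 sponge replicate 1. It was not called over the mean of its probe sets.

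**Figure D2:**
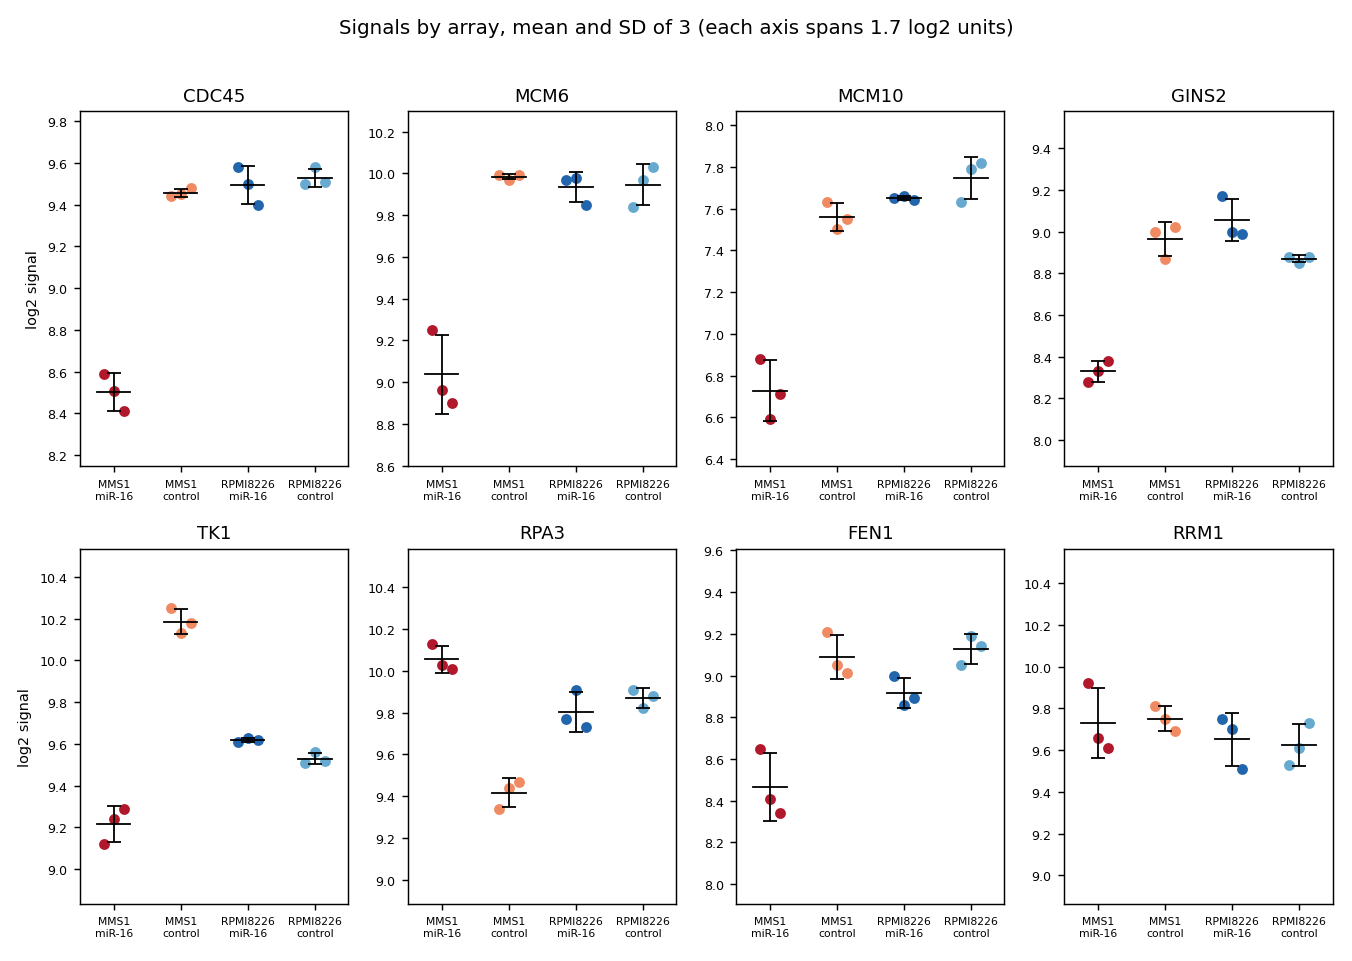
Log2 signals on each of the 12 arrays for 8 genes, with the mean and SD of each group of 3, and axes of equal span. In MMS1 the miR-16 sponge arrays lie below the control arrays for CDC45, MCM6, MCM10, GINS2, TK1 and FEN1, and above them for RPA3. For RRM1, MMS1 miR-16 sponge replicate 1 lies above all MMS1 control arrays and the other replicates lie below them.

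Other probe sets of the same genes served as a check. The genes called lower had 10 further probe sets, of which 7 were called lower and none higher. For the genes not called lower, 31 further probe sets gave 4 lower calls and none higher. These 4 belonged to ORC2 (-0.66), GINS4 (-0.51, a probe set dimmer than the median), MCM4 (-0.49) and RFC5 (-0.46). The brightest probe sets of these genes did not pass. Over all 54613 probe sets, 3339 were called lower and 2296 higher. The array that stood apart on quality was the highest of the 3 miR-16 sponge arrays in 12 of the 16 genes that fell, and replicate 3 in the other 4. Without it, 24 genes were called lower and 1 higher, and over all genes 9.19% were then called lower and 3.27% higher. That count added LIG1, MCM3, MCM4, ORC4, POLE, PRIM2, RFC3, RPA2 and TYMS and lost CDT1. Of the 17 calls, 13 held on leaving out any 1 array. Besides CDT1 (adjusted p from 0.0547 to 0.16), POLD1 was lost without MMS1 control replicate 3 (0.0554) and MCM5 without MMS1 control replicate 1 or miR-16 sponge replicate 3 (0.0561 to 0.0677). RFC4 was lost without any of the 3 MMS1 control arrays, MMS1 miR-16 sponge replicates 2 or 3, or RPMI8226 control replicate 2 (0.0501 to 0.118).

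Markers of other cell types moved in the same comparison. The T cell gene CD3D averaged 12.41 ± 0.15 with the miR-16 sponge and 6.77 ± 0.11 with the control sponge (SD, n = 3 each), while the other 5 T cell markers did not pass. The summed linear signal of the 6 ran from 5270 to 6380, against 333 to 375. Of 11 erythroid markers 3 rose and 4 fell, and their summed signal ran from 28200 to 29600, against 42100 to 43700. Of 5 myeloid markers 1 rose (306 to 348, against 301 to 336), and of 12 plasma cell markers none passed (1540 to 1660, against 1500 to 1570). Of these 12, 1 had an unadjusted p below 0.05, against 5065 of all 19775 genes. The part of all these markers in the fall of the replication genes was not tested.

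In RPMI8226 no replication gene passed. Of the 49, 0 rose and 0 fell in limma, where 0.202% of all genes were called lower and 0.0152% higher. An unadjusted p below 0.05 was found for 4 of the 49, against 2829 of all 19775 genes. The median log2 difference was -0.07, with 38 of 49 below 0, against -0.02 over all genes. MCM5 had the smallest p, with 8.99, 9.03 and 9.0 on the miR-16 sponge arrays, against 9.41, 9.39 and 9.45 on the control arrays (log2 difference -0.41, SE 0.10, limma adjusted p = 0.11). DBF4 gave 7.86, 7.69 and 7.54, against 8.0, 8.15 and 8.08 (-0.38, limma adjusted p = 0.145). Both were lower on every sponge array. With an intensity trend and robust prior in limma both were called, and MCM5 also on leaving out MMS1 miR-16 sponge replicate 1, since the spread is shared over all 12 arrays. CDC45 averaged 9.49 ± 0.09 with the miR-16 sponge and 9.53 ± 0.05 with the control sponge, and MCM6 averaged 9.93 ± 0.07 and 9.95 ± 0.10 (SD, n = 3 each). Markers moved here too, with 2 erythroid markers higher and 1 lower and a summed erythroid signal of 40000 to 41200, against 33000 to 33900.

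The heat map of deviations shows the pattern over all genes at once. Set against each gene's own mean over the 12 arrays, the median deviation of the 49 genes was -0.10, -0.24 and -0.31 on the MMS1 miR-16 sponge arrays, against 0.11, 0.06 and 0.09 on the MMS1 control arrays. It was 0.07, 0.03 and -0.01 on the RPMI8226 miR-16 sponge arrays, against 0.07, 0.12 and 0.17 on the RPMI8226 control arrays. The MMS1 miR-16 sponge arrays were thus the lowest of the 12, and replicate 1 the mildest of them.

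**Figure D3:**
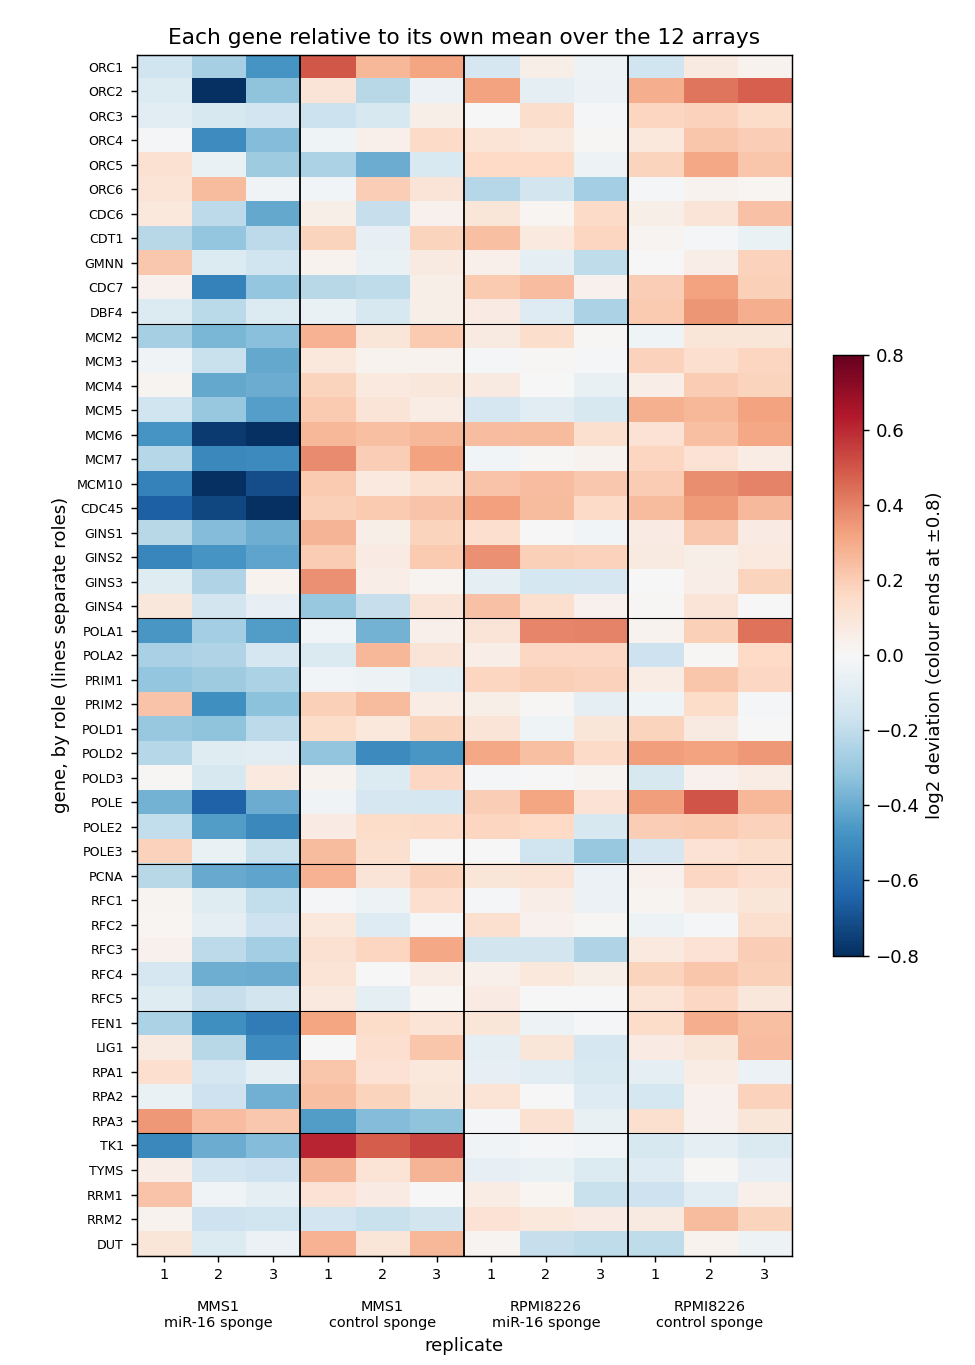
Log2 deviation of each of the 49 genes (rows, by role) on each of the 12 arrays (columns) from that gene's mean over all arrays. The 3 MMS1 miR-16 sponge arrays hold most of the low values, with column medians of -0.10, -0.24 and -0.31, and RPA3 is high on them.

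The difference between the miR-16 sponge and control sponge groups varied by line. Each condition rests on 1 population as far as the labels tell, so sponge and population cannot be told apart here. The test of the difference, RPMI8226 effect minus MMS1 effect, called 8 of the 49 genes higher and 1 lower, against 2.63% of all genes higher and 3.27% lower. TK1 had the largest difference. Its sponge effect was 0.09 in RPMI8226 and -0.97 in MMS1, and the difference was 1.05 (SE 0.13, limma adjusted p = 0.000354). CDC45 had effects of -0.04 in RPMI8226 and -0.95 in MMS1 (difference 0.91, limma adjusted p = 0.0015). GINS2 had 0.18 and -0.63 (0.81, limma adjusted p = 0.00346) and MCM6 had -0.01 and -0.95 (0.93, limma adjusted p = 0.00374), in the same order of lines. The GINS2 call rests on its brightest probe set, and over the mean of its 3 probe sets the adjusted p was 0.383. Helicase genes thus made up 6 of the 8, with MCM10 (0.74), MCM7 (0.61) and MCM2 (0.54) besides CDC45, GINS2 and MCM6 listed above.

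RPA3 differed the opposite way, with a sponge effect of -0.07 in RPMI8226 and 0.64 in MMS1 (difference -0.71, SE 0.13, limma adjusted p = 0.008). ORC1 (0.63, limma adjusted p = 0.0435) was the only licensing gene whose brightest probe set passed, and CDT1 (0.52, limma adjusted p = 0.0535) lay just outside. The second probe sets of CDT1 (0.66, limma adjusted p = 0.0216) and ORC2 (0.63, limma adjusted p = 0.037) passed. Those of ORC4, ORC5 and CDC6 did not. CDT1 was also called after quantile normalization, with brighter probe sets only, over the mean of its probe sets and under the intensity trend. Leaving out MMS1 control replicate 2 added it too. MCM5 had effects of -0.41 in RPMI8226 and -0.42 in MMS1, a difference of 0.02 (SE 0.14). PCNA (0.48), FEN1 (0.41), POLE2 (0.38) and POLD1 (0.39), which fell in MMS1, had differences that did not pass. PCNA and FEN1 were called after quantile normalization, over the mean of probe sets and under the trend, and PCNA also with brighter probe sets only. POLD1 was called with brighter probe sets only and under the trend, and POLE2 under no alternative. Of the 9 calls, 6 held on leaving out any 1 array. ORC1 was lost without any array but MMS1 miR-16 sponge replicate 1 (adjusted p from 0.0572 to 0.112). MCM2 (0.0509 to 0.0966) and MCM7 (0.0528 to 0.0875) were lost without any array but that one and MMS1 control replicate 2. Without that array, 9 genes were higher and 1 lower, with PCNA added, and over all genes 3.09% were then higher and 2.77% lower.

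Between the lines with the control sponge, RPMI8226 was higher for 4 of the 49 genes and lower for 1, with a median of 0.03. Over all genes 6.52% were called higher and 3.8% lower, so these counts were near the background. After quantile normalization the split was 5 higher and 4 lower. The MMS1 control arrays also enter the sponge effect in MMS1, so the comparisons share samples and are given side by side. POLD2 read 9.71, 9.70 and 9.72 in RPMI8226, against 9.06, 8.86 and 8.91 in MMS1 (log2 difference 0.76, SE 0.10, limma adjusted p = 0.000241). TK1 read 9.51, 9.56 and 9.52, against 10.25, 10.13 and 10.18 (-0.65, SE 0.09, limma adjusted p = 0.000512). Its MMS1 control level was thus the highest of the 4 groups, while the MMS1 miR-16 sponge level, 9.22 ± 0.09, was the lowest (SD, n = 3).

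RPA3 read 9.91, 9.82 and 9.88 in RPMI8226, against 9.34, 9.44 and 9.47 in MMS1 (0.46, SE 0.09, limma adjusted p = 0.00872). The MMS1 control group was the lowest of the 4 for RPA3, as it was for POLD2. POLE read 7.68, 7.85 and 7.62, against 7.32, 7.21 and 7.20 (0.47, limma adjusted p = 0.0181). ORC5 read 8.0, 8.13 and 8.04, against 7.57, 7.42 and 7.69 (0.49, limma adjusted p = 0.0247). The groups did not overlap for either gene. ORC5 no longer passed without MMS1 control replicate 1 or 2 or RPMI8226 control replicate 2 or 3 (adjusted p from 0.0715 to 0.109), nor POLE without MMS1 control replicate 2 or 3 or RPMI8226 control replicate 2 (0.0651 to 0.0881). RRM2 read 9.92, 10.10 and 10.03, against 9.69, 9.67 and 9.70 (0.33, limma adjusted p = 0.0527) and did not pass. Its other probe set differed by 0.66 (limma adjusted p = 0.00515). RRM2 was also called over the mean of its probe sets (0.49, limma adjusted p = 0.00367), after quantile normalization, with brighter probe sets only and under the intensity trend. None of the 12 helicase genes passed, with differences from -0.18 to 0.19. None had an unadjusted p below 0.05, against 4525 of all 19775 genes.

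**Figure D4:**
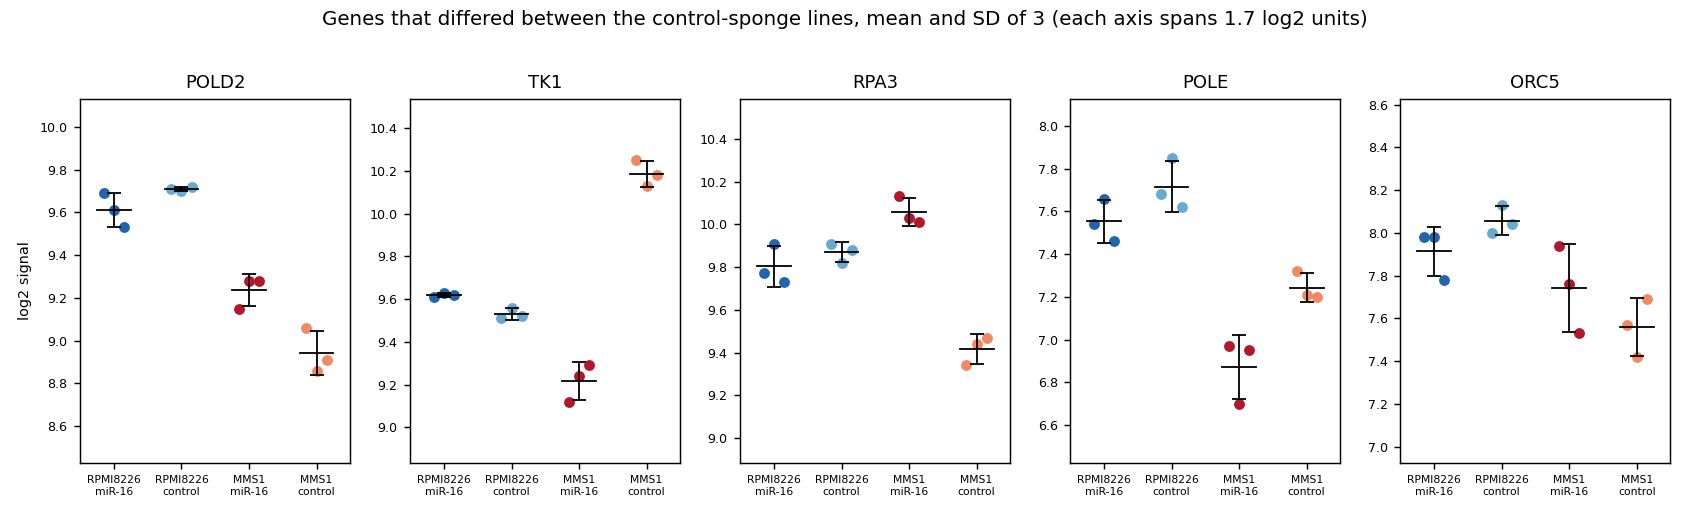
Log2 signals on each array for the 5 genes called between the control-sponge groups of RPMI8226 and MMS1, with the mean and SD of each group of 3 and axes of equal span. RPMI8226 control arrays lie above MMS1 control arrays for POLD2, RPA3, POLE and ORC5 and below them for TK1.

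Other genes of the same pathways were counted in 2 further written lists. Of 29 other fork genes, 8 fell in MMS1, none rose and the median was -0.24, where 8.08% of all genes were called lower. ASF1A and ASF1B, chaperones that hand histones to new DNA, differed by -0.66 (limma adjusted p = 0.00109) and -0.72 (limma adjusted p = 0.0014). The nuclease and helicase DNA2, which processes long flaps, differed by -0.74 (limma adjusted p = 0.00121) and UHRF1, which guides methylation of new DNA, by -0.62 (limma adjusted p = 0.00235). CHAF1A, RECQL4, CHTF8 and DSCC1 were the others. None of the 29 passed in RPMI8226, where 7 had an unadjusted p below 0.05, against 2829 of all 19775 genes. ASF1A came closest there (-0.53, limma adjusted p = 0.0625). The difference between lines passed for ASF1B (0.92) and, downwards, for SSRP1 (-0.54).

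Of 31 other nucleotide metabolism genes, 4 fell in MMS1 and none rose, with a median of -0.07, near the share of all genes called lower (8.08%, or 11.1% of brighter genes). DTYMK, which phosphorylates the thymidine monophosphate made by TK1 and TYMS, read 7.67, 7.58 and 7.68 with the miR-16 sponge, against 8.5, 8.37 and 8.58 with the control sponge (log2 difference -0.85, SE 0.10, limma adjusted p = 0.000126). The purine synthesis genes ATIC (-0.45), ADSL (-0.41) and PFAS (-0.79) also fell. None passed in RPMI8226, where 15 had an unadjusted p below 0.05, against 2829 of all 19775 genes. Of the genes named, DTYMK differed by -0.07 there, ATIC by -0.42 (limma adjusted p = 0.083) and PFAS by -0.60 (limma adjusted p = 0.199). The difference between lines passed for DTYMK (0.78) and, downwards, for NME1 (-0.64).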

How the data were processed

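Gene expression was measured on 12 Affymetrix arrays. The authors deposited a log2 signal for each probe set, bounded below at 4. How they summarized and scaled the signals is not stated in the labels. Per the labels' protocols, RNA went through 2 rounds of linear amplification. No further normalization was applied. After 62 Affymetrix controls were left out, 54613 probe sets were tested, of which 41091 name 1 gene in the platform annotation, 1801 several and 11721 none. Of 19775 genes the brightest probe set naming that gene alone was used.

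limma 3.58.1 (R 4.3.3) was fitted to all 12 arrays with 1 mean per group (8 residual degrees of freedom), and two-sided p-values were adjusted by Benjamini-Hochberg over all probe sets. Scripts were tested on simulated data. Counts and figures used Python 3.11.15, pandas 2.3.3 and matplotlib 3.10.9. The genes and lists were chosen with earlier results of these data known. Every array is printed for up to 3 genes per role with the smallest p in MMS1 and up to 6 in the other comparisons, and up to 4 genes are valued per further list. Genes on those lists with no probe set of their own are not counted. Promoter windows and the microRNA came from RefSeq tables. Alternatives were each array left out, a replicate block, quantile normalization, brighter probe sets only, the mean over a gene's probe sets, only the groups compared, and an intensity trend with a robust prior.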

Additional observations from a re-analysis of the deposited data

Results flagged for a closer look

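The sponge effect differed between the lines for 9 of the 49 genes by limma's test of the difference (RPMI8226 effect minus MMS1 effect, adjusted p below 0.05). The differences in log2 units were 1.05 for TK1, 0.93 for MCM6, 0.91 for CDC45, 0.81 for GINS2, 0.74 for MCM10, 0.63 for ORC1, 0.61 for MCM7, 0.54 for MCM2 and -0.71 for RPA3. GINS2 did not pass over the mean of its probe sets (adjusted p = 0.383). Of these genes, 8 fell and 1 rose in MMS1, and none passed in RPMI8226. TK1 and RPA3 also differed between the control-sponge groups of the lines (-0.65 and 0.46, RPMI8226 minus MMS1). The control arrays of both lines also enter the difference of effects, with the opposite sign. The T cell gene CD3D and several erythroid genes moved in the same MMS1 arrays, and whether that bears on these 9 genes was not tested.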

How the results depend on the processing

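No call among the 49 genes changed direction under any alternative. In MMS1 the lower calls numbered 12 to 23 under the other settings and 13 to 24 on leaving out each array. The higher calls were 2 with brighter probe sets only, the mean over probe sets or an intensity trend, which added POLD2. Lower calls over all probe sets moved as well, from 3339 of 54613 to 4293 under the trend and 2172 with only the groups compared. They were 4023 of 27306 with brighter probe sets only, and 2056 to 3845 of 54613 on leaving out each array. In RPMI8226 the lower calls were 2 with brighter probe sets only or the trend, and 0 to 1 on leaving out each array. Over all probe sets the RPMI8226 calls, 13 higher and 94 lower, depended on the setting, with 291 and 1475 under the trend, and with 84 and 639 when MMS1 miR-16 sponge replicate 1 was left out. With brighter probe sets only these calls were 180 and 1088 of 27306. For the difference of effects the lower calls were 2 with brighter probe sets only or the trend. The higher calls were 12 with either of these or quantile normalization, 10 with the mean over probe sets, and 5 to 9 on leaving out each array. Higher calls over all probe sets went from 1094 of 54613 to 1782 under the trend and 1480 after quantile normalization. They were 1742 of 27306 with brighter probe sets only, and 690 to 1242 of 54613 on leaving out each array. Between the control-sponge lines the lower calls were 4 after quantile normalization, 3 with brighter probe sets only, 2 with the mean over probe sets and 4 under the trend, or 1 to 2 on leaving out each array. The higher calls there were 7 under the trend and 2 to 5 on leaving out each array. Over all probe sets quantile normalization changed the split from 2974 higher and 1491 lower to 2734 and 2196. Under the trend it was 3987 and 2084. With the replicate block the calls were 14 lower and 1 higher in MMS1, 0 in RPMI8226, 6 higher and 1 lower for the difference, and 4 higher and 1 lower between lines. No pairing of samples by replicate number was seen, though how the samples were handled cannot be read from the signals. In deviations from group means, 18 correlations between arrays of the same number ran from -0.0748 to 0.0577. By the same measure, 3 of 12 arrays were closest to their own number. The cause of these shifts was not tested.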

Other observations

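Regulators of the replication programme were counted in MMS1 from written lists. Of 19 genes of the E2F and RB family and their partners, 3 fell, none rose and the median log2 difference was -0.15, where 8.08% of all genes, or 11.1% of brighter genes, were called lower. E2F8, itself an E2F target and a repressor (-0.87, limma adjusted p = 0.000148), FOXM1, a driver of G2 and mitotic genes (-0.54, limma adjusted p = 0.0105), and the activator E2F2 (-0.64, limma adjusted p = 0.0213) fell, and MYBL2 did not pass (-0.32, limma adjusted p = 0.0892). In RPMI8226 none passed, and 1 had an unadjusted p below 0.05, against 2829 of all 19775 genes. E2F8 differed by -0.08 there. The difference between lines passed for E2F8 (0.79, limma adjusted p = 0.00791).

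Of 17 S-phase checkpoint and cell cycle genes, 2 fell in MMS1, none rose and the median was -0.11, a count near that same background. DTL, which marks CDT1 for destruction at PCNA, differed by -0.42 (limma adjusted p = 0.0242) and the S-phase kinase CDK2 by -0.40 (limma adjusted p = 0.0367). Its cyclin CCNA2 (-0.30, limma adjusted p = 0.0535) and the checkpoint clamp gene HUS1 (0.39, limma adjusted p = 0.0682) did not pass. None passed in RPMI8226, where 3 had an unadjusted p below 0.05, against 2829 of all 19775 genes.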
